A study of Mus musculus with 6 samples.

Results

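The genes described here are 38 genes of the core autophagy machinery, followed by name in the table of gene counts of primary mouse adult fibroblasts (MAFs). They were chosen by what their proteins do and not by their values, although earlier results of these data were known. They comprise the ULK initiation complex, the PI3KC3 lipid kinase complex, the lipid supply and WIPI proteins, the conjugation enzymes, the ATG4 proteases, the ATG8 proteins and the cargo receptors. All 38 were found among the 43346 genes of the table, and all 38 passed the filter on low counts that left 17589 genes for testing. Polyadenylated RNA was sequenced from 3 control and 3 senescent samples, and the comparison asks how the transcriptome of senescent fibroblasts differs from that of proliferating ones. The donors were adult C57BL6/J females, and ear tissue was the source of the cells. Control cells were sham irradiated, whereas X-rays at 20 Gy followed by another 21 days in culture gave the senescent cells. Both groups were grown at 3% oxygen, were given 100 nM dexamethasone, a glucocorticoid that sets the clocks of cultured cells, for 2 hours, and were harvested 12 hours after that. The labels number the replicates but do not say whether they were separate cultures or animals, so p-values measure the spread between these samples, which may be technical.

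Macroautophagy encloses cytoplasm in a double membrane, the autophagosome, and delivers it to the lysosome for breakdown. The ULK kinase complex starts the process, the PI3KC3 complex marks the membrane with a phosphorylated lipid, WIPI proteins read that lipid, and ATG9 and ATG2 supply membrane. A pair of ubiquitin-like systems then attaches ATG8 proteins (the LC3 and GABARAP subfamilies) to the membrane, where they hold cargo receptors such as p62, the product of *Sqstm1*. Autophagy and lysosomes are much studied in senescent cells, in which growth arrest, large size and secretion of proteins put demands on turnover. Much of the control of autophagy acts on proteins, by phosphorylation and lipidation, and transcript levels do not measure autophagic flux.

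Total counts lay between 50288454 and 82229553 per library, and the counts of single autophagy genes between 39 and 48444. Levels are given as CPM (counts relative to the library total after TMM scaling in edgeR) in each sample or as mean ± SD with n = 3, and changes as log2 fold changes of senescent over control with their standard error (SE). Gene positions are those of the count table, in mm10. *Mki67*, a proliferation marker, went from 589 ± 17.3 to 9.60 ± 1.49 CPM. *Cdkn1a*, the gene of the cell cycle inhibitor p21, went from 123 ± 2.01 to 619.5 ± 16.3 CPM. All 10 fibroblast markers were detected, with a summed level of 17810 to 19901 CPM in control and 6717 to 8018 CPM in senescent samples, where 4 of them rose (*Dcn*, *Thy1*, *Lum* and *Fap*), 5 fell and 1 did not pass the test. All 9 chondrocyte markers were detected as well, with a sum of 5216 to 5716 CPM in control and 361 to 441 CPM in senescent samples, and all 8 of them that were tested fell. Sums were 5.95 to 6.396 CPM in control and 10.8 to 12.3 CPM in senescent samples for 7 macrophage markers, and 0.899 to 0.937 and 5.14 to 5.70 CPM for 6 endothelial markers, of which *Tie1* had at most 3 counts in any library. Keratinocyte markers summed to 16.4 to 16.98 CPM in control and 9.50 to 9.93 CPM in senescent samples, muscle markers to 15.5 to 20.9 and 15.1 to 27.8 CPM, and Schwann cell and melanocyte markers, with *Dct* and *Tyr* at most at 3 counts, to 47.4 to 50.8 and 39.1 to 42.8 CPM. The keratinocyte sum was mostly *Trp63* (13.1 and 4.17 CPM). Of 4 keratinocyte markers tested, *Trp63* was lower and *Cdh1* higher (0.477 and 1.91 CPM). The last sum was mostly *S100b* (44.4 and 37.8 CPM). Of its 4 markers tested, 3 were lower and 0 higher. *Sox10*, not tested, had 0 counts in every control library and 20, 34 and 8 in senescent replicates 1, 2 and 3. In bulk RNA, fewer cells of a type and less RNA per cell cannot be told apart, and the part of these marker shifts in the changes of the autophagy genes was not tested.

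Senescent replicate 3 stood apart from the other senescent libraries. The squared differences between its counts and theirs had medians of 18.5 and 24.6 times the counting noise, against 2.24 times between senescent replicates 1 and 2 and 1.78 to 5.34 times between control libraries. Its counts also followed the base composition of the genes, with a log2 deviation from the average of the 6 libraries of 0.25 at a GC content of 41.2% and of -0.45 at 57.7%, where senescent replicates 1 and 2 lay at -0.042 and 0.011 and the controls at 0.060 to 0.22. The longest transcripts of the autophagy genes that rose had a median GC content of 45.3% (39.6 to 58.5%) and those of the genes that fell 52.8% (47.0 to 63.1%). Values without this library, and with a library-specific GC term, are therefore given beside the results that they touch. The GC term was added after the data had been seen.

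Autophagy genes moved in both directions, most of them by less than 1 log2 unit, and about as often as other genes. With adjusted p-values under 0.05 (quasi-likelihood test of edgeR, Benjamini-Hochberg over all tested genes), 15 of the 38 were higher and 15 lower in senescent cells, and 8 did not pass. This is 39.5% in each direction, against 36.2% higher and 34.1% lower among all tested genes. Among the 12157 tested genes with at least the mean count of the lowest autophagy gene, 33.2% were higher and 39.9% lower. The control and senescent values did not overlap in 34 of the 38 genes (89.5%), against 75.3% of all tested genes. That share includes genes with fewer counts, and it was not computed for the 12157 genes alone. For a single gene, exact permutation of 3 against 3 samples reaches no p below 0.1.

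The median log2 fold change of the 38 genes was -0.073, and that of all tested genes 0.0085. The median absolute log2 fold change was 0.44 for the autophagy genes, 0.58 for all tested genes and 0.47 for those at least as highly counted. With the threshold of the study's methods, an unadjusted p under 0.05 together with a log2 fold change beyond 1 in size, 2 autophagy genes were higher, *Atg9b* and *Sqstm1*, where 17.8% of all tested genes passed. No autophagy gene was lower by this threshold with edgeR or with DESeq2, although 16 had an unadjusted p under 0.05 in that direction, and 12.3% of all tested genes passed. Without control replicate 1, *Calcoco1* also passed, and *Gabarapl1* was past the threshold with scaling by library size alone (1.02) and with the GC term (1.12). The results section of the study names a smaller p cutoff with the same fold change, which was not applied here. The plot of levels relative to the control mean shows the size of these changes beside the spread of the replicates.

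**Figure D1:**
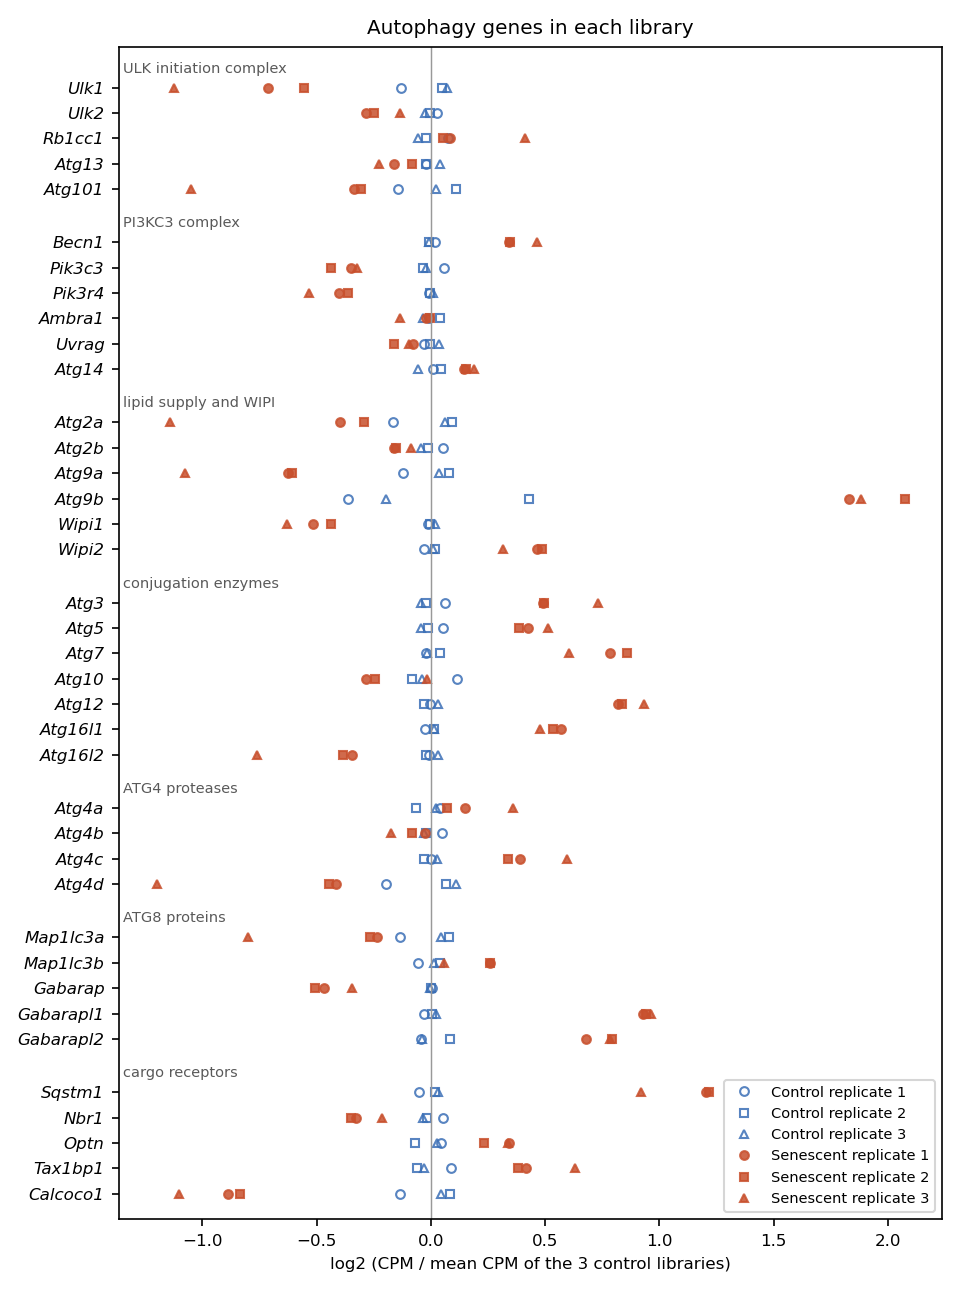
Log2 of CPM over the mean CPM of the 3 control libraries (horizontal axis) for each of the 38 autophagy genes (rows, by step of the pathway), with 1 mark per library. The groups do not overlap in 34 of the 38 genes, and senescent replicate 3 (filled triangles) lies apart from the other senescent libraries in genes such as *Atg101*, *Atg2a* and *Map1lc3a*.

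The ULK complex, the kinase assembly that starts autophagosome formation, was lower in 4 of its 5 genes and higher in none, with a median log2 fold change of -0.22. Of all tested genes 34.1% were lower, and 39.9% of those at least as highly counted, and the step as a set was not tested. With scaling by library size alone, 1 gene of the complex was lower (*Ulk1*) and 1 higher (*Rb1cc1*, adjusted p = 0.0424), and 2 were lower without control replicate 2, without control replicate 3 and with either other filter on counts. *Ulk1* (chr5:110784488-110810097), the main kinase, was measured at 59.1, 66.8 and 67.8 CPM in control replicates 1, 2 and 3 and 39.4, 44.0 and 29.6 CPM in senescent replicates 1, 2 and 3. All senescent values were below all control values, and senescent replicate 3 was the lowest (log2 fold change -0.78, SE 0.14, adjusted p = 0.00137). The change was -0.62 without senescent replicate 3 and -0.47 with the GC term, and it passed the test in both. *Ulk2* (chr11:61775649-61855073), the related kinase, was measured at 98.7, 96.5 and 95.1 CPM in control replicates 1, 2 and 3 and 79.4, 81.5 and 88.1 CPM in senescent replicates 1, 2 and 3. Its groups did not overlap either, but the drop was smaller (log2 fold change -0.22, SE 0.060, adjusted p = 0.0108), and with scaling by library size alone it was -0.14 and no longer passed (adjusted p = 0.0635).

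*Atg101*, a partner that stabilises ATG13, had 16.8, 20.0 and 18.8 CPM in the control and 14.7, 15.0 and 8.96 CPM in the senescent replicates. Its senescent values were all below the control values, with replicate 3 far below the other two (log2 fold change -0.53, SE 0.19, adjusted p = 0.0361). Without that library the change was -0.31 and with the GC term -0.23, each past the test, whereas under 5 other settings, among them scaling by library size alone and each of control replicates 2 and 3 left out, it did not pass. *Atg13*, the regulatory subunit that mTORC1 phosphorylates, went from 56.2 ± 1.40 to 50.4 ± 2.54 CPM (log2 fold change -0.16, SE 0.061, adjusted p = 0.0498). Its call was lost under 11 of 13 alternative settings, and its direction turned to 0.021 with the GC term. *Rb1cc1*, the gene of the scaffold FIP200, did not pass the test, with 151 ± 7.004 CPM in control and 172 ± 24.7 CPM in senescent samples (log2 fold change 0.19, 95% interval -0.042 to 0.43, adjusted p = 0.122). Its control and senescent ranges overlapped, the highest value was that of senescent replicate 3, and with the GC term the sign turned (-0.015).

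In the PI3KC3 complex, the lipid kinase that produces phosphatidylinositol 3-phosphate on the growing membrane, 1 of 6 genes rose, 2 fell and 3 did not pass the test. Among all tested genes, 36.2% were higher and 34.1% lower. *Becn1* (chr11:101285952-101302286), the gene of the regulatory subunit Beclin 1, had 88.3, 86.8 and 86.9 CPM in the control and 111, 111 and 121 CPM in the senescent replicates. All senescent values were higher (log2 fold change 0.39, SE 0.057, adjusted p = 0.000485). Its exons share 3104 bases with *Cntd1* on the other strand, which had 12 to 70 counts per library. *Pik3c3*, the catalytic subunit VPS34, had 43.8, 41.2 and 41.5 CPM in the control and 33.1, 31.2 and 33.8 CPM in the senescent replicates, and *Pik3r4*, the gene of its kinase-like partner VPS15, had 53.4, 53.6 and 54.1 CPM in the control and 40.7, 41.7 and 37.1 CPM in the senescent replicates. Both were lower in every senescent sample (log2 fold change -0.37, adjusted p = 0.00106 for *Pik3c3* and log2 fold change -0.43, adjusted p = 0.00047 for *Pik3r4*).

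The genes of the subunits that direct the complex did not pass the test. *Atg14*, which takes it to the site of autophagosome formation, had 16.4 ± 0.582 CPM in control and 18.4 ± 0.294 CPM in senescent samples, without overlap but short of the threshold (log2 fold change 0.16, 95% interval 0.0024 to 0.32, adjusted p = 0.0655), and it passed in 5 of the 13 alternative settings, such as without senescent replicate 3 (adjusted p = 0.0337). *Uvrag*, the subunit of the endosomal form of the complex, had 36.9 ± 0.868 CPM in control and 34.1 ± 1.009 CPM in senescent samples (log2 fold change -0.11, 95% interval -0.25 to 0.026, adjusted p = 0.127). *Ambra1*, a scaffold that links Beclin 1 and ULK1, had 50.3 ± 1.33 CPM in control and 48.5 ± 2.36 CPM in senescent samples (log2 fold change -0.054, 95% interval -0.20 to 0.088, adjusted p = 0.455), and its groups overlapped. With the GC term *Ambra1* was at 0.17 and passed the test.

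Among the lipid supply and WIPI genes, 2 of 6 rose, 3 fell and 1 did not pass the test. For comparison, 36.2% of all tested genes were higher and 34.1% lower. *Atg9a* (chr1:75180860-75192196), the scramblase on the vesicles that seed the autophagosome, had 77.0, 88.6 and 85.9 CPM in the control and 54.3, 55.0 and 39.8 CPM in the senescent replicates. Senescent values lay below control values throughout, with replicate 3 lowest (log2 fold change -0.76, SE 0.13, adjusted p = 0.000973), and the change was -0.61 without that library and -0.50 with the GC term, both past the test. *Atg9a* shares 1832 exonic bases, 31.8% of its exons, with the transcript *Gm29253* on the same strand, which had 1370 to 2653 counts per library. The division of reads between them is therefore uncertain. *Atg9b* (chr5:24384181-24392143), the paralog of *Atg9a*, was the lowest of all autophagy genes per length, with 0.255 RPKM in control and 0.972 RPKM in senescent samples (CPM divided by exon length in kilobases). It was measured at 0.782, 1.36 and 0.879 CPM in the control and 3.57, 4.23 and 3.71 CPM in the senescent replicates, with 39 counts in its lowest library, and it had the largest change of the 38 (log2 fold change 1.91, SE 0.20, adjusted p = 6.64e-05). Of its exons, 294 bases lie opposite *Nos3*, which had 13 to 57 counts per library.

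*Atg2a* and *Atg2b* encode proteins that carry lipid from the endoplasmic reticulum to the growing membrane. *Atg2a* (chr19:6241668-6262335) had 38.6, 46.1 and 45.2 CPM in the control and 32.9, 35.4 and 19.6 CPM in the senescent replicates. The groups did not overlap, but senescent replicate 3 was well under the others (log2 fold change -0.56, SE 0.20, adjusted p = 0.0368), and the change was -0.33 without it and -0.22 with the GC term, each past the test. Under 5 other settings the call was lost. *Atg2b* did not pass, with 84.5 ± 2.91 CPM in control and 77.2 ± 2.24 CPM in senescent samples (log2 fold change -0.13, 95% interval -0.26 to -0.0027, adjusted p = 0.0643), and it passed without senescent replicate 3 (adjusted p = 0.00334).

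The genes of the WIPI proteins, which bind the lipid made by PI3KC3, went opposite ways. *Wipi1* (chr11:109573331-109611967) was measured at 96.9, 97.5 and 99.1 CPM in the control and 68.4, 72.3 and 63.3 CPM in the senescent replicates, lower in every senescent sample (log2 fold change -0.53, SE 0.064, adjusted p = 0.000162). *Wipi2* (chr5:142629542-142670588), whose protein recruits ATG16L1 to the membrane, was measured at 96.1, 99.5 and 98.9 CPM in the control and 135, 138 and 122 CPM in the senescent replicates. It was higher in every senescent sample (log2 fold change 0.42, SE 0.063, adjusted p = 0.000487).

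The conjugation enzymes, which attach ATG12 to ATG5 and ATG8 proteins to lipid, held the largest share of increases among the steps, with 5 of 7 higher, 1 lower, 1 that did not pass and a median log2 fold change of 0.53. Of all tested genes 36.2% were higher, and 33.2% of those at least as highly counted, and the step as a set was not tested. *Atg12*, the ubiquitin-like protein itself, had 37.2, 36.5 and 38.1 CPM in the control and 65.8, 66.5 and 71.1 CPM in the senescent replicates. *Atg7* (chr6:114643097-114860614), the activating enzyme of both systems, had 19.1, 20.0 and 19.2 CPM in the control and 33.5, 35.2 and 29.6 CPM in the senescent replicates. *Atg3* (chr16:45158785-45188538), which hands ATG8 proteins to the lipid, had 52.7, 49.9 and 49.1 CPM in the control and 71.0, 71.2 and 84.0 CPM in the senescent replicates. In all of these, every senescent value lay above every control value (log2 fold change 0.86, SE 0.059, adjusted p = 5.76e-06 for *Atg12*, log2 fold change 0.75, SE 0.082, adjusted p = 9.01e-05 for *Atg7* and log2 fold change 0.58, SE 0.080, adjusted p = 0.000344 for *Atg3*). *Atg5* (chr10:44268358-44364291), the acceptor of ATG12, went from 29.7 ± 0.991 to 40.4 ± 1.86 CPM (log2 fold change 0.44, SE 0.065, adjusted p = 0.000445). *Atg16l1*, which places the ATG12 and ATG5 conjugate on the membrane, went from 35.2 ± 0.531 to 50.8 ± 1.63 CPM (log2 fold change 0.53, SE 0.057, adjusted p = 8.09e-05).

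The remaining members of this step did not follow. *Atg16l2*, the paralog of *Atg16l1*, had 11.4, 11.3 and 11.7 CPM in the control and 9.02, 8.76 and 6.77 CPM in the senescent replicates, lower in every senescent sample (log2 fold change -0.49, SE 0.12, adjusted p = 0.00658). *Atg10*, the enzyme that joins ATG12 to ATG5, had 8.19 ± 0.596 CPM in control and 7.25 ± 0.739 CPM in senescent samples with overlapping groups (log2 fold change -0.17, 95% interval -0.42 to 0.070, adjusted p = 0.173). Without senescent replicate 3 its change was -0.25 and passed the test, and with the GC term it was -0.36 and passed. Of the conjugation enzymes that rose, none lost its call under any of the 13 alternative settings.

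Promoters were searched for the E-box CACGTG, the motif bound by TFEB, TFE3 and the clock factors BMAL1 and CLOCK, because the series concerns the clock and TFEB is a known regulator of autophagy genes. In the RefSeq promoters (GRCm38.p6, 250 bases before to 50 after the start), which hold 32 of the 38 genes, it occurred in 4 genes (12.5%), namely *Atg3*, *Atg5*, *Atg7* and *Atg14*, against 8.09% of 27025 genes and 7.15% of 32851 promoters of that length. Of these 32 genes, the E-box was in 3 of the 12 that rose, 0 of the 13 that fell and 1 of the 7 that did not pass. Its share among all genes that passed the count filter, or that rose or fell, was not computed. Whether the motif goes with direction was not tested. The longer TCACGTGA, the core of the lysosomal CLEAR motif, which contains the E-box, was found in *Atg3*, against 1.12% of all genes, and the AP-1 motif TGACTCA in none of the 32, against 5.95% of all genes. Both strands were searched. A match describes letters and not a bound site, and binding at these sites was not analysed here. The windows around the motifs of the 3 conjugation genes are shown because they are the E-boxes among genes that rose. They are on the plus strand at chr16:45158730-45158791 (*Atg3*), chr10:44268298-44268338 (*Atg5*) and chr6:114670937-114670996 (*Atg7*), the motif begins 72, 14 and 132 bases before the RefSeq start, and capitals mark it (TCACGTGA in *Atg3*, CACGTG in the others). The *Atg3* window holds another E-box in lower case, 94 bases before the start. The *Atg7* window lies within the gene as the count table lists it but outside its annotated exons. It is downstream of the start listed there (114643097), so this promoter belongs to another start of *Atg7*.
Atg3: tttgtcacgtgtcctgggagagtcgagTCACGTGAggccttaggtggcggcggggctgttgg
Atg5: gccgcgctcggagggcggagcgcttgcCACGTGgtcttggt
Atg7: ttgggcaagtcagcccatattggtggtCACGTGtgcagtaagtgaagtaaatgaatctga

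The ATG4 proteases trim ATG8 proteins before conjugation and release them from lipid afterwards, and 1 of their 4 genes rose and 1 fell. Of all tested genes, 36.2% were higher and 34.1% lower. *Atg4b*, the main LC3 protease, had 72.2 ± 2.20 CPM in control and 67.8 ± 3.50 CPM in senescent samples (log2 fold change -0.092, 95% interval -0.23 to 0.049, adjusted p = 0.209), with overlapping groups. *Atg4c* had 13.4, 13.1 and 13.6 CPM in the control and 17.5, 16.9 and 20.2 CPM in the senescent replicates, higher in every senescent sample (log2 fold change 0.45, SE 0.088, adjusted p = 0.00232). *Atg4d* had 7.30, 8.75 and 9.01 CPM in the control and 6.26, 6.13 and 3.64 CPM in the senescent replicates, lower in every senescent sample and lowest in replicate 3 (log2 fold change -0.65, SE 0.21, adjusted p = 0.0216). Its change was -0.43 without that replicate, and the call was lost when control replicate 2 or 3 was left out (adjusted p = 0.0651 and 0.0704). In GENCODE M21, 1405 exonic bases of *Atg4d* lie opposite *Kri1*, which had 1525 to 3521 counts per library. That annotation gives *Atg4d* other ends and 7264 exonic bases, against 2541 behind its counts. How much of the overlap lies in the counted exons is therefore not known. *Atg4a* did not pass, with 14.9 ± 0.566 CPM in control and 17.1 ± 1.80 CPM in senescent samples (log2 fold change 0.20, 95% interval -0.019 to 0.42, adjusted p = 0.0905). Its change was 0.12 without senescent replicate 3 and 0.059 with the GC term, neither past the test, and it passed in 3 of the 13 alternative settings.

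**Figure D2:**
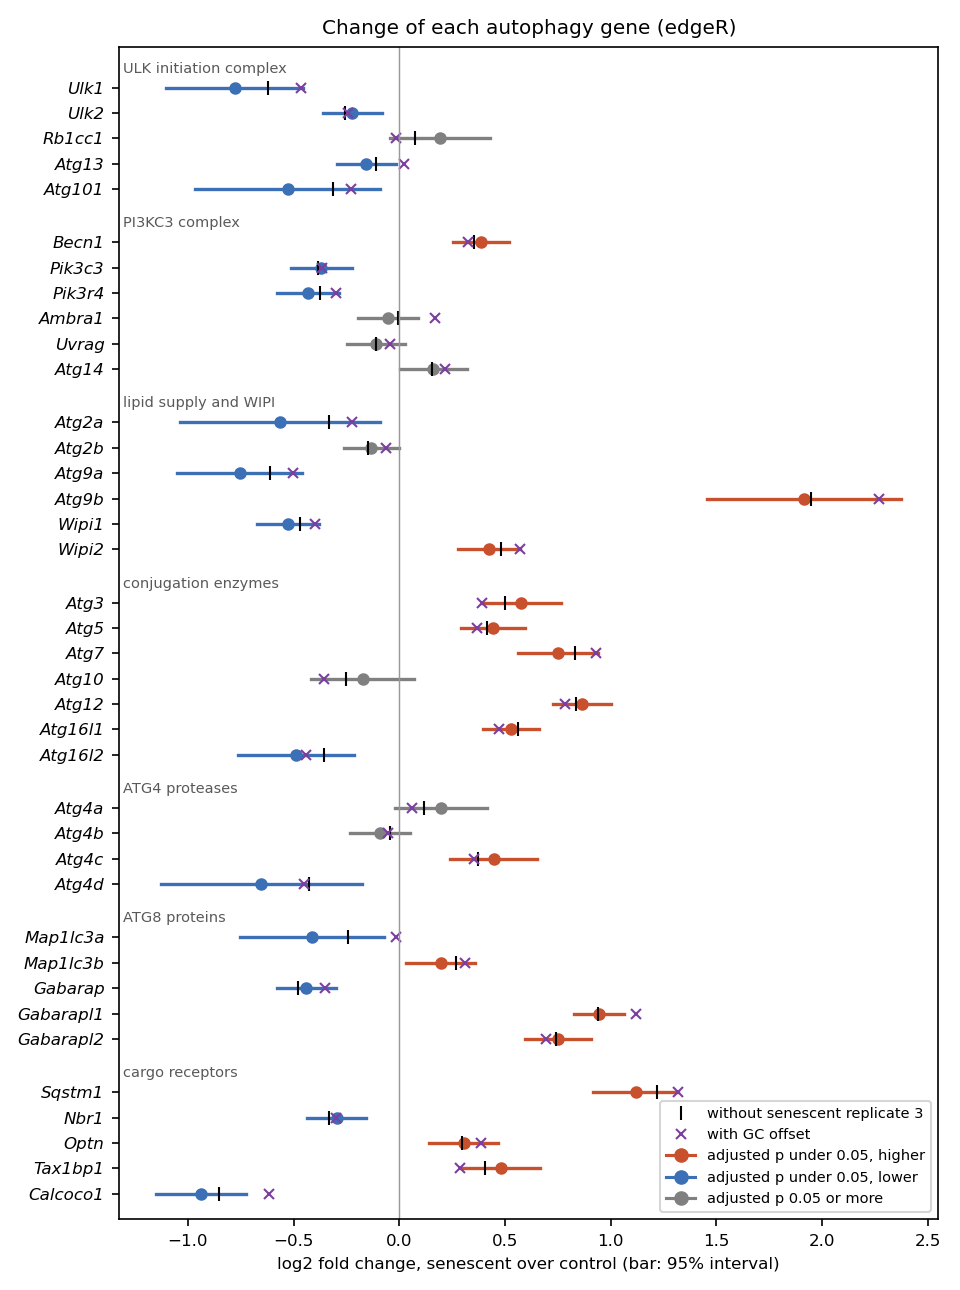
Log2 fold changes of senescent over control with 95% intervals for the 38 autophagy genes, by step. Points are coloured by direction at an adjusted p under 0.05, vertical ticks give the value without senescent replicate 3 and crosses the value with the GC term, and both lie nearer to 0 than the point for *Atg101*, *Atg2a*, *Atg4d* and *Map1lc3a*.

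All 5 ATG8 genes passed the test, 3 higher and 2 lower, where 36.2% of all tested genes were higher and 34.1% lower. The step as a set was not tested. The ATG8 proteins are the ubiquitin-like tags that are joined to the membrane and bind receptors. *Gabarapl1* (chr6:129533200-129542331) was measured at 108, 111 and 113 CPM in control replicates 1, 2 and 3 and 211, 212 and 216 CPM in senescent replicates 1, 2 and 3. All senescent values were above the control values and close to each other, for a fold of 1.92 (log2 fold change 0.94, SE 0.051, adjusted p = 1.51e-06). *Gabarapl2* (chr8:111940703-111953612) was measured at 30.5, 33.3 and 30.6 CPM in the control and 50.2, 54.3 and 54.1 CPM in the senescent replicates, without overlap (log2 fold change 0.75, SE 0.067, adjusted p = 2.71e-05). *Gabarap* (chr11:69991143-69994951), in contrast, was measured at 485, 482 and 481 CPM in the control and 349, 339.8 and 379.9 CPM in the senescent replicates and was lower in every senescent sample (log2 fold change -0.44, SE 0.059, adjusted p = 0.000295). Per length it was the most abundant of the autophagy genes in both groups, with 262 RPKM in control and 193 RPKM in senescent samples, followed by *Sqstm1* with 78.5 RPKM in control and 170.3 RPKM in senescent samples.

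The LC3 genes moved in opposite directions, but neither call held under all alternative settings. *Map1lc3b* (chr8:121590361-121598760), the gene of LC3B, whose lipidated form is the usual marker of autophagosomes, was measured at 168, 179 and 176 CPM in the control and 209, 209 and 182 CPM in the senescent replicates. Senescent replicate 3 lay near the controls, and the groups did not overlap (log2 fold change 0.20, SE 0.071, adjusted p = 0.0369). The call was lost in 7 of the 13 alternative settings, and with the GC term the change was 0.31 and passed. *Map1lc3a* (chr2:155276297-155278073) was measured at 56.4, 65.5 and 64.0 CPM in the control and 52.7, 51.5 and 35.6 CPM in the senescent replicates, with senescent replicate 3 far below the rest (log2 fold change -0.41, SE 0.15, adjusted p = 0.0353). Its change was -0.24 without that library and passed, and -0.016 with the GC term, where it did not (adjusted p = 0.752). In all, the call of *Map1lc3a* was lost in 6 of the 13 alternative settings.

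Of the summed RPKM of the ATG8 genes, *Gabarap* took 62.5 to 64.5% in control and 46.1 to 50.8% in senescent samples. *Gabarapl1* took 15.1 to 15.3% in control and 29.7 to 30.1% in senescent samples. Their shares did not overlap between the groups. *Map1lc3a* went from a mean of 12.7 to 9.81%, *Map1lc3b* from 5.61 to 6.61% and *Gabarapl2* from 3.27 to 5.65%. The shares depend on exon length, and in CPM *Map1lc3b* held 20.3 and 23.0%, *Map1lc3a* 7.19 and 5.36%, *Gabarapl2* 3.65 and 6.09%, *Gabarap* 56.1 and 41.0% and *Gabarapl1* 12.9 and 24.5%. The GABARAP subfamily together held 81.7% ± 0.949 of the level in control and 83.6% ± 2.63 in senescent samples (n = 3 each), with overlapping values and a two-sided exact permutation p of 0.3. The difference of 1.86 percentage points was 0.345 without senescent replicate 3, and it was -0.94 when counts were not divided by exon length.

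**Figure D3:**
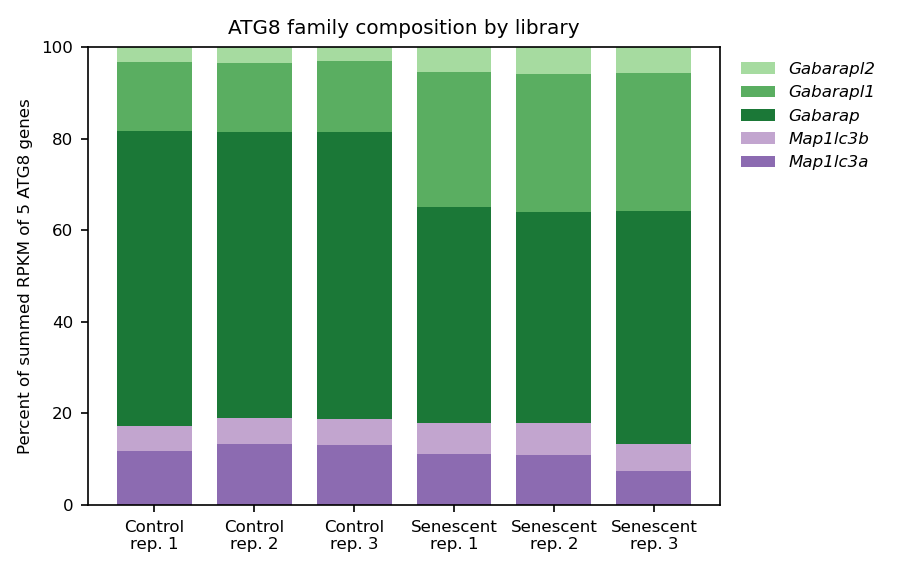
Share of each ATG8 gene in the summed RPKM of the 5 genes, in percent, for each of the 3 control and 3 senescent samples. *Gabarap* takes 62.5 to 64.5% of the level in controls and 46.1 to 50.8% in senescent samples, and *Gabarapl1* 15.1 to 15.3% and 29.7 to 30.1%.

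Among the cargo receptors, which bind ATG8 proteins and ubiquitin or other marks on cargo, 3 of 5 genes rose and 2 fell. The shares among all tested genes were 36.2% higher and 34.1% lower, and the step as a set was not tested. *Sqstm1* (chr11:50199366-50210827), the gene of p62, was measured at 254, 267 and 269 CPM in control replicates 1, 2 and 3 and 606, 611 and 498 CPM in senescent replicates 1, 2 and 3. Every senescent value was far above every control value, for a fold of 2.17, and replicate 3 was the lowest of the senescent group (log2 fold change 1.12, SE 0.087, adjusted p = 1.35e-05). Its exons share 580 bases with *Mrnip* on the other strand, which had 98 to 344 counts per library. *Tax1bp1*, a receptor for ubiquitinated protein and ferritin that had 168, 152 and 155 CPM in the control and 211, 206 and 245 CPM in the senescent replicates, and *Optn*, a receptor for damaged mitochondria that had 21.4, 19.8 and 21.1 CPM in the control and 26.3, 24.4 and 26.2 CPM in the senescent replicates, were higher in every senescent sample (log2 fold change 0.48, SE 0.081, adjusted p = 0.000987 for *Tax1bp1* and log2 fold change 0.31, SE 0.071, adjusted p = 0.00502 for *Optn*). With the GC term *Tax1bp1* was at 0.29 and passed.

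*Nbr1*, a receptor that works with p62, had 232, 221 and 219 CPM in the control and 179, 176 and 194 CPM in the senescent replicates and was lower in every senescent sample (log2 fold change -0.29, SE 0.060, adjusted p = 0.00273). *Calcoco1* (chr15:102706779-102722178), a receptor for endoplasmic reticulum and Golgi membrane, was measured at 77.6, 90.3 and 87.9 CPM in control replicates 1, 2 and 3 and 46.1, 47.8 and 39.7 CPM in senescent replicates 1, 2 and 3. It had the largest drop of the 38 genes (log2 fold change -0.94, SE 0.091, adjusted p = 4.71e-05), all senescent values were below all control values, and the change was -0.62 with the GC term and passed.

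Paralogs of the same step were also compared with each other. The difference between groups in the log2 ratio of 2 paralogs was compared for 7 pairs with a two-sided exact permutation test. In 6 pairs the groups did not overlap, and each gave the smallest p possible, 0.1 (0.117 after Benjamini-Hochberg adjustment over the 7 pairs), so that no pair could pass 0.05. The ratio of *Gabarap* to *Gabarapl1*, on the log2 scale of RPKM, was 2.06 ± 0.034 in control and 0.68 ± 0.070 in senescent samples. That of *Wipi1* to *Wipi2* was 0.86 ± 0.021 and -0.088 ± 0.028. Which of this pair is the more abundant depends on the exon length used, since the mean ratios were 1.25 and 0.30 with the lengths of GENCODE M21 and -0.0041 and -0.95 in CPM, while the difference between the groups does not. That of *Atg9a* to *Atg9b* was 5.88 ± 0.34 and 3.14 ± 0.25, and *Atg9a* remained the more abundant of the pair.

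*Atg16l1* to *Atg16l2* went the other way from these, from 0.31 ± 0.031 to 1.33 ± 0.18. *Map1lc3a* to *Map1lc3b* stood at 1.17 ± 0.068 and 0.55 ± 0.20. The sign of this ratio also depends on exon length. In CPM *Map1lc3b* was the higher gene, with means of 175 against 61.9 in control and 200 against 46.6 in senescent samples. *Ulk1* to *Ulk2* stood at -0.39 ± 0.14 and -0.96 ± 0.36, and the difference of -0.57 was -0.37 without senescent replicate 3. *Atg2a* to *Atg2b* overlapped between the groups, at -0.57 ± 0.19 and -1.04 ± 0.50 (exact permutation p = 0.2, also after adjustment), and the difference of -0.47 was -0.18 without senescent replicate 3.

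**Figure D4:**
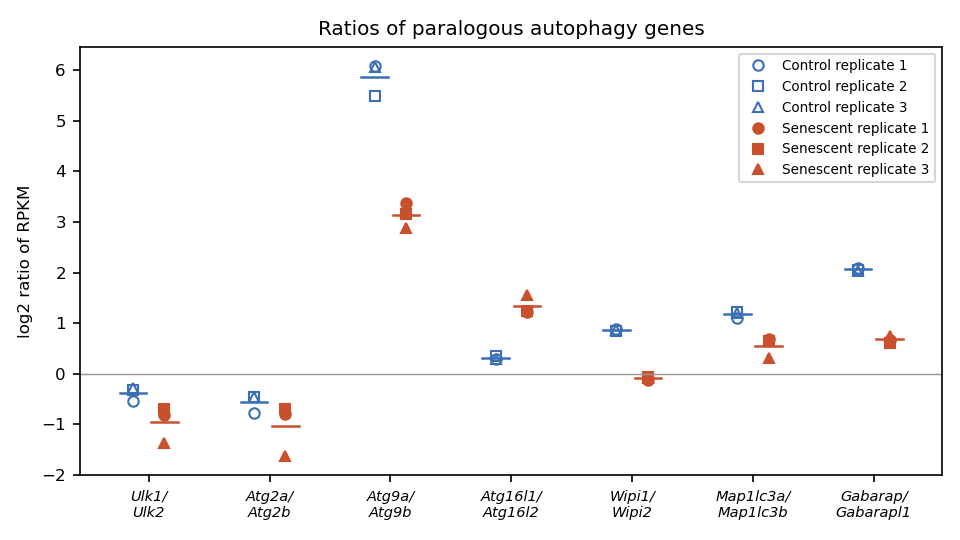
Log2 ratio of the RPKM of 2 paralogs in each of the 3 control and 3 senescent samples, with the group means. The groups lie apart in 6 of the 7 pairs, by -2.74 log2 units for *Atg9a* to *Atg9b*, and overlap for *Atg2a* to *Atg2b*.

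Genes around the core machinery were followed in 6 further lists of 116 genes, of which 115 were tested. Of these, 45 were higher (39.1%), 34 lower (29.6%) and 36 did not pass, against 36.2% higher and 34.1% lower among all tested genes, with a median log2 fold change of 0.028. Without senescent replicate 3, 55 were higher and 39 lower. *Calcoco2*, the remaining gene, fell below the count filter. Of 17 other genes of autophagosome formation, 8 rose (47.1%) and 3 fell (17.6%), against the same shares of all tested genes. Single lists were not tested as sets. *Bcl2*, which binds and restrains Beclin 1, went from 4.53 ± 0.424 to 15.0 ± 1.53 CPM (log2 fold change 1.73, SE 0.11, adjusted p = 4.95e-06), and *Tmem41b*, a lipid scramblase of the endoplasmic reticulum, from 37.96 ± 0.862 to 67.6 ± 8.28 CPM (log2 fold change 0.83, SE 0.090, adjusted p = 8.56e-05). *Wdr45*, the gene of the WIPI relative WIPI4 that works with ATG2, went from 36.6 ± 2.34 to 22.1 ± 3.06 CPM (log2 fold change -0.73, SE 0.11, adjusted p = 0.00056). *Tbk1*, a kinase that phosphorylates OPTN and p62, went from 47.3 ± 1.37 to 37.5 ± 1.19 CPM (log2 fold change -0.33, SE 0.059, adjusted p = 0.00123).

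Of the 17 genes of fusion with the lysosome, 9 rose (52.9%) and 3 fell (17.6%), against 36.2% and 34.1% of all tested genes. *Rab7*, the small GTPase of late endosomes and lysosomes, went from 213 ± 3.58 to 352 ± 7.37 CPM (log2 fold change 0.73, adjusted p = 6.79e-06), and the SNARE gene *Snap29* from 37.9 ± 1.08 to 63.5 ± 5.67 CPM (log2 fold change 0.74, adjusted p = 6.28e-05). The SNARE gene *Vamp8*, whose protein pairs with SNAP29 in fusion, went from 78.6 ± 2.39 to 43.1 ± 1.02 CPM (log2 fold change -0.87, adjusted p = 4.14e-06), opposite to its partner. *Vps16*, of the HOPS tethering complex, went from 61.8 ± 1.49 to 43.7 ± 4.79 CPM (log2 fold change -0.50, adjusted p = 0.00106). Of 19 organelle-selective receptors tested, 8 rose (42.1%) and 6 fell (31.6%), against 36.2% and 34.1% of all tested genes. *Stbd1*, a glycogen receptor (log2 fold change 1.24, adjusted p = 6.3e-06), and *Retreg1*, a receptor for endoplasmic reticulum (log2 fold change 1.42, adjusted p = 1.73e-05), were higher. The mitochondrial receptors *Bnip3*, at 189.9 ± 4.37 to 93.1 ± 10.9 CPM (log2 fold change -1.03, adjusted p = 2.03e-05), and *Bcl2l13* (log2 fold change -0.60, adjusted p = 4.01e-05) were lower.

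Of 27 genes of mTORC1, the kinase complex that inhibits ULK1, and its lysosomal inputs, 8 rose (29.6%) and 7 fell (25.9%). The shares of all tested genes were 36.2% higher and 34.1% lower. *Rragd*, the gene of a Rag GTPase that brings mTORC1 to the lysosome, was measured at 0.321, 0.351 and 0.368 CPM in the control and 10.4, 11.7 and 13.8 CPM in the senescent replicates (log2 fold change 5.10, SE 0.17, adjusted p = 1.24e-07). *Rheb*, the GTPase that activates mTORC1, went from 85.8 ± 0.730 to 138 ± 12.8 CPM (log2 fold change 0.68, adjusted p = 8.85e-05). *Deptor*, an mTOR inhibitor, was measured at 65.1, 57.4 and 58.1 CPM in the control and 11.9, 11.2 and 14.3 CPM in the senescent replicates (log2 fold change -2.27, SE 0.11, adjusted p = 7.91e-07), and *Depdc5*, of the GATOR1 complex that restrains the Rag GTPases, went from 33.9 ± 1.77 to 17.1 ± 0.340 CPM (log2 fold change -0.98, adjusted p = 6.78e-06). Of 20 AMPK and stress input genes, 7 rose (35%) and 10 fell (50%), against 36.2% and 34.1% of all tested genes. *Prkaa2*, a catalytic AMPK subunit, went from 0.820 ± 0.0179 to 8.73 ± 1.31 CPM (log2 fold change 3.41, adjusted p = 5.28e-07), and *Ddit4l* from 23.4 ± 0.296 to 49.7 ± 1.40 CPM (log2 fold change 1.09, adjusted p = 1.54e-06). *Ddit4*, its paralog and a glucocorticoid-responsive mTORC1 inhibitor, went from 58.9 ± 4.09 to 20.8 ± 0.332 CPM (log2 fold change -1.50, adjusted p = 7.88e-07), and the kinase gene *Dapk1* from 87.5 ± 0.695 to 40.5 ± 1.86 CPM (log2 fold change -1.11, adjusted p = 1.24e-06).

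Of 15 transcription factors with autophagy targets, 5 rose, 5 fell and 5 did not pass. This is 33.3% in each direction, against 36.2% higher and 34.1% lower among all tested genes. *Foxo1* went from 17.2 ± 0.817 to 41.4 ± 4.25 CPM (log2 fold change 1.27, adjusted p = 8.11e-06), *Ddit3*, the gene of the stress factor CHOP, from 26.97 ± 1.12 to 69.2 ± 11.1 CPM (log2 fold change 1.36, adjusted p = 2.41e-05), *Foxo4* from 47.3 ± 2.27 to 24.3 ± 0.731 CPM (log2 fold change -0.96, adjusted p = 5.6e-06) and *Usf2* from 30.6 ± 0.918 to 18.0 ± 1.73 CPM (log2 fold change -0.77, adjusted p = 0.000105). The genes of the TFEB family are named outside the rule, after their values had been seen. *Tfeb* was measured at 7.88, 10.1 and 10.4 CPM in the control and 3.16, 3.37 and 1.82 CPM in the senescent replicates (log2 fold change -1.77, SE 0.23, adjusted p = 0.000221), lower in every senescent sample. *Tfec* had 0 counts in every control library and 21, 45 and 58 counts in senescent replicates 1, 2 and 3, at least 9.52-fold higher against a floor of 3 counts per control library. *Mitf* went from 5.51 ± 0.780 to 8.45 ± 0.804 CPM (log2 fold change 0.62, adjusted p = 0.00275). *Tfe3* had 66.1 ± 4.17 CPM in control and 66.9 ± 5.77 CPM in senescent samples, with overlapping groups, and did not pass (log2 fold change 0.017, 95% interval -0.17 to 0.21, adjusted p = 0.865).

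**Figure D5:**
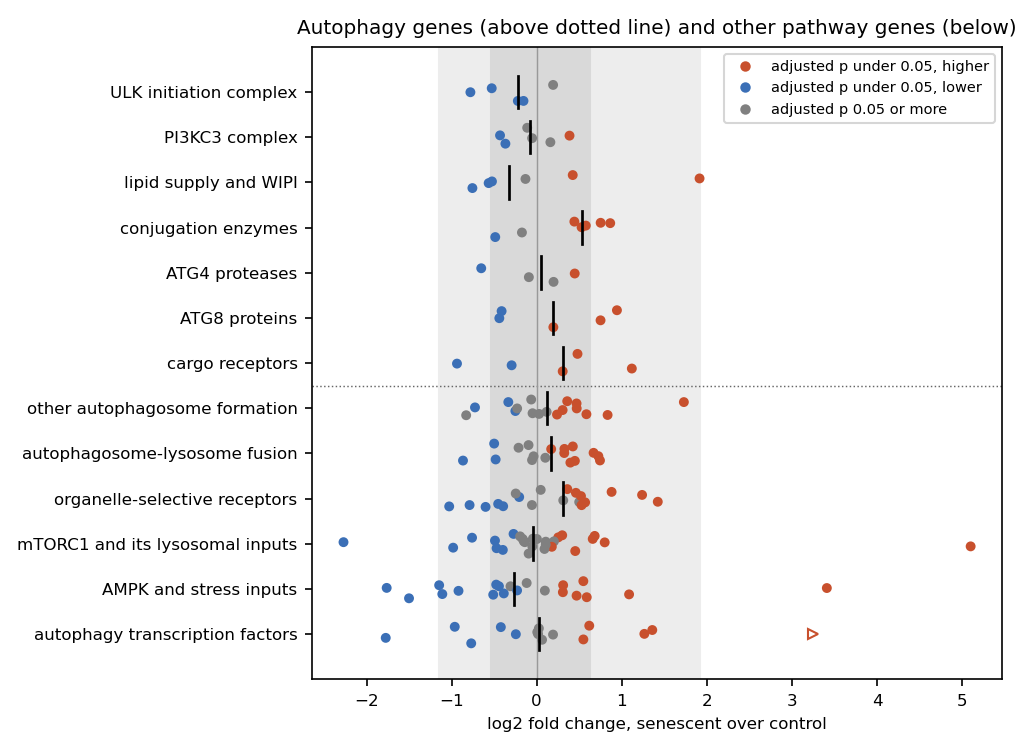
Log2 fold changes of single genes for the 7 steps of the core machinery (above the dotted line) and 6 further lists (below it), with list medians as bars and the 10th to 90th and 25th to 75th percentiles of all tested genes as light and dark bands. Medians of the 7 steps lie between -0.33 and 0.53, and the triangle marks *Tfec* at its lower bound.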

How the data were processed

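RNA-seq of polyadenylated RNA from 3 control and 3 senescent samples was used (stranded libraries from 200 ng of RNA, 100 bases from each end). The authors mapped reads to mm10 with STAR in MAPRSeq, used Subread to obtain counts per gene, and deposited these without normalization. The strand setting and the handling of multiply mapped reads are not given in the sources used here, so values of near-identical copies and overlapping genes (14 of the 38 share exon bases with another gene in GENCODE M21, 1 on the same strand) are uncertain. The exon length behind the counts equals that of GENCODE M21 for 24 of the 38. Genes passing filterByExpr were scaled by TMM and compared with edgeR 4.0.16 (robust quasi-likelihood test, R 4.3.3, two-sided), with group as the only term and Benjamini-Hochberg adjustment over 17589 genes. RPKM were computed here from CPM and the exon lengths of the table. The floor of 3 counts covers counting error only. The script was tested on simulated data.

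The 38 genes, the lists and the tests were chosen with earlier results of these data known. Named are all 38 genes and, from each further list, up to 2 genes per direction with the smallest p among those with an adjusted p under 0.05 and a mean of at least 100 counts. 9 of 116 listed genes were matched by gene ID, the table holding an older name. Alternatives were RLE scaling, library size alone, no filter beyond 1 count, at least 10 counts in every library, DESeq2 1.42.0, a replicate term, a GC term (chosen after seeing the data) and each library left out, 13 in all.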

Additional observations from a re-analysis of the deposited data

How the results depend on the processing

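Of the 30 autophagy genes with a call, 23 passed in the same direction under all 13 alternatives, 14 of them higher and 9 lower. *Ulk2*, *Atg13*, *Atg101*, *Atg2a*, *Atg4d*, *Map1lc3a* and *Map1lc3b* missed the threshold under at least 1. The count of higher genes lay between 14 and 18 and that of lower genes between 10 and 14 under the alternatives that keep all libraries, and between 14 and 16 and 10 and 17 with a library left out. By the study's threshold, the count of lower genes was 0, and 0 to 1 with a library left out (1, *Calcoco1*, without control replicate 1). The count of higher genes by that threshold was 2, or 3 with scaling by library size alone and with the GC term (*Gabarapl1*). Of the genes in the further lists, 42 to 57 were higher and 29 to 35 lower with all libraries, and 39 to 55 and 29 to 39 with a library left out. The GC term reversed *Atg13* to 0.021 and, among genes without a call, *Ambra1* to 0.17 and *Rb1cc1* to -0.015, and the difference in the GABARAP share was reversed to -0.94 without division by length. The cause was not tested. With the replicate number as a block, 14 genes were higher and 14 lower. Deviations from the group mean correlated at -0.56, 0.44 and -0.40 between samples numbered 1, 2 and 3. Between samples with unlike numbers they ranged from -0.63 (control 1, senescent 2) to 0.67 (control 1, senescent 3). Deviations from a mean of 3 samples are tied to each other, and senescent replicate 3 stood apart. These correlations therefore cannot decide on pairing, and the numbers were not taken to pair the samples. Scaling by library size alone shifted the median of the 38 genes by 0.078 and the GC term by 0.075. With 3 samples a group, the 95% intervals of genes that missed the threshold reached up to 0.43 (*Rb1cc1*), and depth limits *Atg9b*, at 39 to 335 counts, most.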
